A study of Saccharomyces cerevisiae with 11 samples.

Results

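The 49 genes described here encode enzymes that make amino acids in Saccharomyces cerevisiae, and they are 49 of the 6668 genes in the deposited count tables. They were listed by systematic name and pathway, in a list drawn up with earlier results of these data known, and they fall into 9 pathway groups: arginine (7), histidine (4), lysine (7), leucine (3), isoleucine and valine (7), tryptophan and other aromatic amino acids (9), the aspartate family (4), serine (3), and glutamate, glutamine and asparagine (5). All 49 were found in all 11 libraries.

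The study asked how translation changes as mother cells divide and age. Cells of the diploid strain BY4743 were labeled with biotin and batch-cultured for 13 h at 25 °C. Young cells were the unlabeled daughters left in the supernatant, Middle cells were the labeled mothers bound to magnetic beads, and Aged cells were such mothers grown for 24 h more in the miniature chemostat aging device (MAD), a small vessel with flowing medium that holds beaded mothers on a magnet. Each age has 2 RNA-Seq libraries, Young and Middle cells have 2 footprint libraries each, and Aged cells have 1 footprint library. The study gives the purity of the Aged fraction as incomplete, so daughters can be present in it. By the study's methods all ages share the genotype MATa/MATα with his3Δ1, leu2Δ0 and ura3Δ0 on both homologs and lys2Δ0 and met15Δ0 on 1, so that LYS2 has 1 copy instead of 2. All ages also share a synthetic defined medium with casamino acids, a mixture of amino acids. The study does not list which amino acids this mixture held or how much was left at harvest, so supply may have differed by amino acid and age. Middle and Aged cells differ from Young cells in bead binding and Aged cells also in the culture vessel, and these differences and age cannot be told apart.

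Wild-type yeast makes all amino acids from intermediates of sugar metabolism and ammonium, and it adjusts the enzymes at several levels. The strain used here has, by its listed genotype, deletion alleles of HIS3 and LEU2 on both homologs, in the histidine and leucine routes. Whether these routes ran to their end products was not measured. When an amino acid runs short, the kinase Gcn2 favors translation of the transcription factor Gcn4, which binds TGACTCA and raises transcription of enzymes in many of these pathways together. Single pathways also have activators of their own that sense an intermediate: Lys14 with α-aminoadipate semialdehyde for lysine, and Leu3 with α-isopropylmalate for the branched-chain amino acids. End products inhibit the enzymes of the entry steps, so enzyme levels are only part of the control.

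Libraries held 476704 to 2585717 counts for RNA and 168247 to 965156 counts for footprints, and the 49 enzymes took 1.20 to 1.54% of the RNA counts and 1.30 to 2.05% of the footprint counts. The median enzyme had 80 to 443 counts in an RNA library and 29 to 198 in a footprint library. In the shallowest library, the footprint library of Middle replicate 1, 11 of the 49 had fewer than 10 counts. Levels are given as CPM, counts per 1000000 scaled by the TMM method within each assay, and 3 counts correspond to 1.10 to 7.15 CPM in RNA and 3.18 to 18.7 CPM in footprints. Young footprints of the enzymes differed between replicates: 45 of 49 were higher in replicate 1, the median by 1.88-fold. Of the 49, 19 differed by more than 2-fold, a larger share than the 19.4% of 4078 genes. In the other groups the median enzyme differed between replicates by 1.35- to 1.48-fold, and 32 to 40 of 49 were higher in replicate 1. LEU2 and URA3, deleted on both chromosomes by the listed genotype, had 16 to 412 RNA counts in every library. Of the haploid-specific genes, the pheromone genes MFA1 and MF(ALPHA)1 had at most 8 and 4 RNA counts. STE2 had 17 and 27 and STE3 13 and 26 RNA counts in Young cells, and both had 1 to 9 in Middle and Aged libraries. Genes of daughter cells (8 genes such as DSE1, CTS1 and EGT2) summed to 1030 and 455 CPM of RNA in Young, 1104 and 602 in Middle cells, against 1555 and 1511 in Aged cells, and their part in the results was not tested.

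The promoters of the enzymes were searched for the letters bound by the 3 activators, in the 500 bases before each start codon and on both strands. TGACTCA was present before 29 of the 49 enzymes (59.2%), against 4% of 6000 promoters. It stood before all 7 arginine, 4 histidine and 3 leucine enzymes, before 2 of 7 lysine enzymes and before 0 of 3 serine enzymes. The Leu3 letters CCGGNNCCG were present before 7 enzymes (14.3%, against 1.17% of all promoters), namely LEU1, LEU4, ILV2, ILV3, ILV5, BAT1 and GDH1. The Lys14 letters TCCNNNGGA were present before 7 enzymes (14.3%, against 5.9%), of which LYS1, LYS9, LYS12 and LYS21 are lysine enzymes. Such a match is a run of letters and not a measured binding site.

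The windows below hold matches of enzymes whose RNA or footprints changed in the tests that follow, read from the RefSeq genome (R64, sacCer3) 5′ to 3′ on the strand of the gene, with the matched letters in capitals. LYS2, LYS4 and LYS20 have no Lys14 match, and their Middle RNA changed by log2 1.47, 1.09 and 1.91. TRP3 and THR4 have a match, with values of -0.83 and -0.02, and so has LEU9, whose window is not shown. A link between match and change was not tested. The Lys14 matches of lysine enzymes are shown because the lysine enzymes moved together:
LYS1 (chrIX:420914-420942): atttttttttTCCAGCGGAatttggaatt
LYS9 (chrXIV:715595-715623): gaatcgaaatTCCGTTGGAaaaattcgct
LYS9 (chrXIV:715533-715561): attgagaattTCCAATGGAattatcagca
LYS12 (chrIX:187796-187824): ttcactttttTCCCGTGGAaaaatattct
LYS21 (chrIV:227053-227081): gagttgaaatTCCGCTGGAaatcgtcacc
The Leu3 matches are shown because ILV3 and ILV5 were higher in Aged than in Middle cells. LEU4 was higher in Aged than in Young cells, and BAT1 and GDH1 were lower in Middle than in Young cells:
ILV3 (chrX:466368-466396): tcgctgcgagCGGAACCGGgcctgaaaaa
ILV5 (chrXII:839612-839640): gcggtctcctCCGGTACCGgttctgccac
LEU4 (chrXIV:427185-427213): gctaccggagCGGGACCGGctctgagaca
BAT1 (chrVIII:517375-517403): attgtgtttgCCGGTACCGgcctttaagc
GDH1 (chrXV:1043428-1043456): aaccaatgcgCCGGAACCGgcccatgcat
The Gcn4 matches are shown for 1 changed enzyme of each pathway that has any, since such enzymes went in both directions:
HIS4 (chrIII:68516-68542): ccatgcacagTGACTCAcgttttttta
ASN1 (chrXVI:822383-822409): atgtaacattTGACTCAttctgtaaac
BAT1 (chrVIII:517351-517377): tgccttcttaTGACTCAaaattctatt
ARO1 (chrIV:704251-704277): gtcatgcataTGACTCAtcccgaacat
CPA1 (chrXV:882405-882431): gaagggtgttTGACTCAtcatcgcatc
LEU4 (chrXIV:426839-426865): tacgtgtaagTGACTCAgttctttcaa
LYS1 (chrIX:420970-420996): actaagtcgaTGAGTCAaaaaagactc
In LYS1 the match lies on the other strand, so that the window shows TGAGTCA, and for the same reason the capitals in the Leu3 windows of ILV3 and LEU4 are the reverse complement of the letters searched.

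The RNA of 5 of 48 enzymes was higher in Middle than in Young cells (10.4%, against 2.11% of 5818 genes tested) and that of 1 was lower (2.08%, against 0.859%). Each age was compared with another by edgeR's quasi-likelihood test over all genes, with Benjamini-Hochberg adjusted p under 0.05 as the threshold. Of the 5 that rose, 4 were lysine enzymes and the other was CPA1 of arginine synthesis. The rest of the list leaned the other way: 33 of 48 log2 fold changes were negative, with a median of -0.55 against -0.02 over all genes. At an unadjusted p under 0.05, 9 enzymes were higher (18.8%, against 12.4% of all genes) and 15 lower (31.2%, against 11.3%). By size alone, 8 were more than 2-fold higher (16.7%, against 8.66%) and 11 more than 2-fold lower (22.9%, against 11%). LEU9 had too few counts to be tested. In bulk libraries such as these, fewer cells of a kind and less RNA per cell cannot be told apart.

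**Figure D1:**
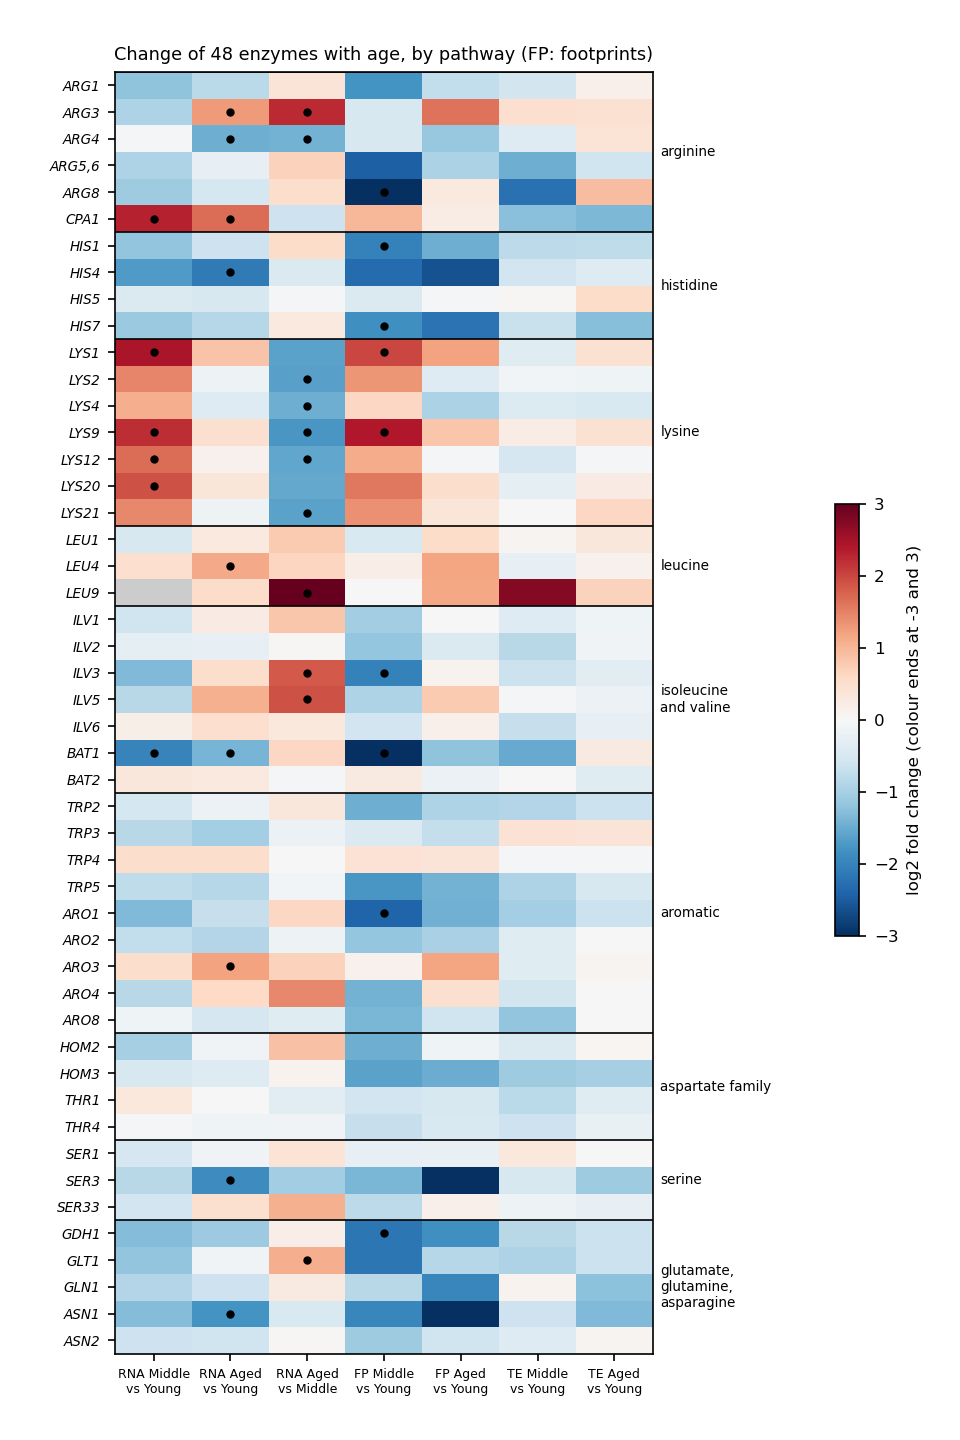
Log2 fold change of 48 of the 49 enzymes (rows, grouped by pathway) in 7 comparisons (columns: RNA, footprints, FP, and translational efficiency, TE), in red where higher and blue where lower in the older cells, with the color ending at -3 and 3. Black dots mark adjusted p under 0.05 in the columns that have a test, the gray cell is LEU9, not tested there, and the block of 7 lysine enzymes stands out in the column of RNA in Middle cells.

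Lysine is made in fungi by the α-aminoadipate pathway. Homocitrate synthase, encoded by the paralogs LYS20 and LYS21, makes the entry step, LYS4 encodes homoaconitase, LYS12 homoisocitrate dehydrogenase, LYS2 α-aminoadipate reductase, and LYS9 and LYS1 the saccharopine dehydrogenases of the closing steps. The summed RNA of the 7 enzymes was 1327 and 1202 CPM in Young, 5047 and 3176 CPM in Middle cells, against 1641 and 1052 CPM in Aged cells. Their summed footprints were 2547 and 1708 CPM in Young, 7344 and 5150 CPM in Middle cells, against 2822 CPM in Aged cells. Both assays thus gave their highest values in the Middle libraries, with no overlap between Middle and Young cells.

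All 7 lysine enzymes had RNA log2 fold changes above 1 in Middle cells, from 1.09 to 2.44, and 4 passed the test. LYS1 (YIR034C) was at 87.7 and 44.0 CPM in Young, 498 and 217 in Middle cells, against 153 and 83.8 in Aged cells, and it rose in Middle cells by a log2 fold change of 2.44 ± 0.48 (SE, edgeR adjusted p = 0.0394). LYS9 (YNR050C) was at 128 and 182 CPM in Young, 784 and 687 in Middle cells, against 265 and 174 in Aged cells, and it rose in Middle cells by 2.23 ± 0.33 on the log2 scale (edgeR adjusted p = 0.0219). LYS12 (YIL094C) was at 168 and 158 CPM in Young, 648 and 409 in Middle cells, against 195 and 163 in Aged cells, a rise of 1.68 ± 0.32 in Middle cells (edgeR adjusted p = 0.0394). In each of these the Middle libraries lay above every Young and every Aged library. LYS20 (YDL182W) was at 114 and 125 CPM in Young, 567 and 346 in Middle cells, against 218 and 99.7 in Aged cells, and its log2 fold change was 1.91 ± 0.32 (edgeR adjusted p = 0.0312). The other members were below the threshold in this comparison. Their log2 fold changes were 1.47 ± 0.40 for LYS2 (edgeR adjusted p = 0.0727), 1.44 ± 0.38 for LYS21 (0.0668) and 1.09 ± 0.32 for LYS4 (0.0878). All 7 directions were the same under every alternative setting and with any library left out, while the number that passed the test ranged from 3 to 6. LYS1 did not pass with at least 10 counts in every library, nor LYS12 without Middle replicate 1 (log2 1.36).

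**Figure D2:**
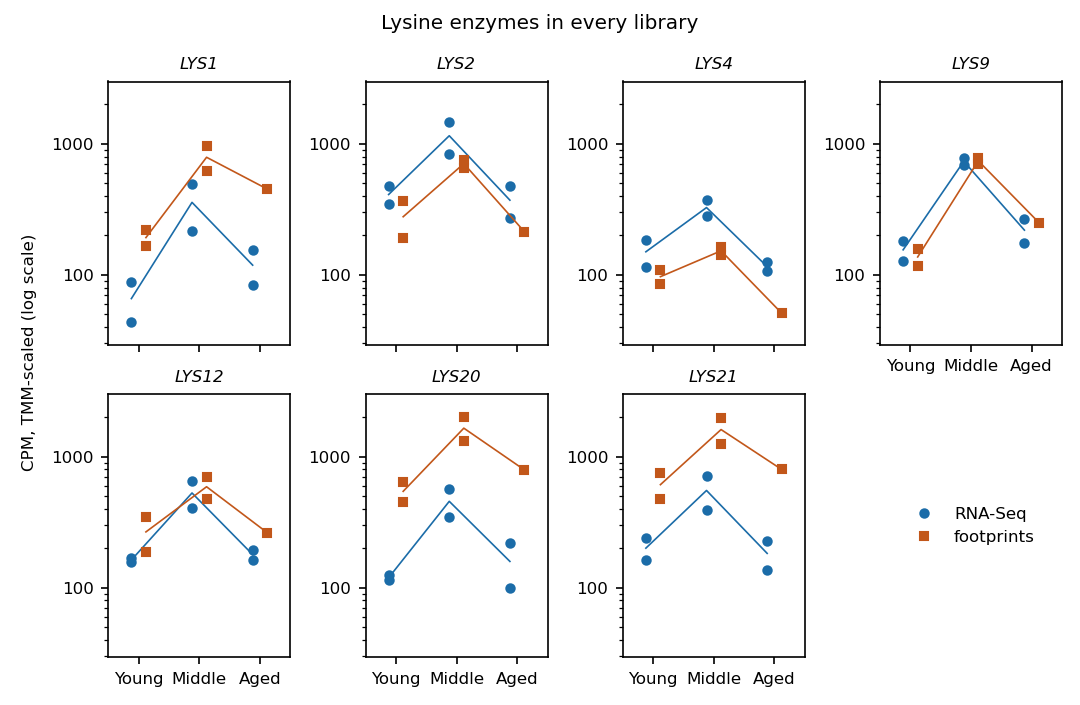
CPM of the 7 lysine enzymes in every library on a log scale, with RNA-Seq as blue circles, footprints as orange squares and lines through the mean of each age. In RNA, each enzyme's Middle libraries lie above its Young and Aged libraries, as for LYS9 with 784 and 687 CPM in Middle cells.

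The lysine enzymes were lower again in Aged cells. Compared directly with Middle cells, all 7 RNA log2 fold changes lay between -1.75 and -1.47, and 5 passed the test. The log2 fold change was -1.75 ± 0.30 for LYS9 (edgeR adjusted p = 0.00834), -1.55 ± 0.30 for LYS12 (0.0144) and -1.47 ± 0.26 for LYS4 (0.01005). LYS4 (YDR234W) was at 116 and 184 CPM in Young, 372 and 281 in Middle cells, against 106 and 125 in Aged cells. LYS2 (YBR115C), at 476 and 346 CPM in Young, 1464 and 844 in Middle cells, against 474 and 270 in Aged cells, fell by 1.63 ± 0.39 (edgeR adjusted p = 0.0379). LYS21 (YDL131W), at 238 and 163 CPM in Young, 713 and 393 in Middle cells, against 229 and 136 in Aged cells, fell by 1.60 ± 0.37 (edgeR adjusted p = 0.0335). In all 5 the Aged libraries lay below both Middle libraries. Aged and Young cells differed less: no lysine enzyme passed the test there, with log2 fold changes from -0.39 (LYS4) to 0.85 (LYS1). Without Aged replicate 2 none of the 7 passed against Middle cells (median -1.26), and without Middle replicate 1 only 2 passed (median -1.19). Lower calls over all genes also dropped there, from 170 of 5674 to 23 of 5381 and 68 of 5961.

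Footprints of the lysine enzymes were higher in Middle cells as well, by log2 0.63 to 2.40, and 2 of 7 passed the test. LYS9 footprints were at 117 and 157 CPM in Young, 786 and 697 in Middle cells, against 250 CPM in Aged cells, a rise of 2.40 ± 0.42 on the log2 scale in Middle cells (edgeR adjusted p = 0.0148). LYS1 footprints were at 219 and 166 CPM in Young, 961 and 620 in Middle cells, against 452 CPM in Aged cells, a rise of 2.00 ± 0.44 (edgeR adjusted p = 0.0251). LYS20 footprints were at 640 and 448 CPM in Young, 1997 and 1309 in Middle cells, against 793 in Aged cells, and those of LYS21 at 752 and 473, 1978 and 1247, and 799 CPM. In all 7 enzymes both Middle footprint libraries lay above both Young ones. Without Middle replicate 2 none of the 7 passed (35 of 4310 genes were then higher, against 114 of 4167), and without Middle replicate 1 only LYS9 did (126 of 4493), with all 7 directions kept. Translational efficiency is the change of footprints relative to the change of RNA, and that of the lysine enzymes in Middle cells lay between -0.50 and 0.22 on the log2 scale.

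LYS20 and LYS21 are hard to separate by sequence. Their coding sequences are 91.6% identical over 1281 aligned bases, and 48.6% and 47.2% of their 28-base words occur more than once in the genome, so reads of one can be counted for the other. With the counts of the pair summed, RNA was higher in Middle cells by log2 1.64 ± 0.38 (edgeR adjusted p = 0.0557) and lower in Aged than in Middle cells by -1.57 ± 0.40 (0.0476). Footprints of the summed pair differed by 1.48 ± 0.55 in Middle cells (0.110). The call of LYS20 alone in Middle cells was therefore above the threshold once the pair was counted as 1 feature.

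Arginine enzymes were split in Middle cells. CPA1 encodes the small subunit of the carbamoyl phosphate synthetase of this pathway, and in yeast its mRNA carries an upstream reading frame through which arginine lowers its translation. CPA1 (YOR303W) RNA was at 109 and 119 CPM in Young, 622 and 524 in Middle cells, against 347 and 388 in Aged cells. It rose by log2 2.31 ± 0.29 in Middle (edgeR adjusted p = 0.0145) and by 1.68 ± 0.30 in Aged cells (0.00589), and all older libraries lay above the Young ones. Footprints of CPA1 were few, with 7 and 30 counts in Young, 5 and 55 in Middle cells, against 43 in Aged cells. In CPM they were 20.5 and 52.3, 31.2 and 106, and 45.6, so that Young and Middle libraries overlapped, and the log2 fold change of 0.99 ± 0.60 did not pass the test (edgeR adjusted p = 0.340). The Aged log2 values of CPA1 in RNA were 1.60 to 1.76 over the libraries left out, and it passed the test except without Young replicate 2, where 0 of 5958 genes passed in Aged against Young RNA, so that this setting says nothing of single genes.

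The enzymes after carbamoyl phosphate synthetase differed from CPA1 and from each other. ARG3 (YJL088W), the ornithine carbamoyltransferase that uses its product, was at 45.0 and 35.6 CPM of RNA in Young, 21.5 and 20.6 in Middle cells, against 114 and 84.4 in Aged cells. It was higher in Aged cells than in Young cells by log2 1.29 ± 0.37 (edgeR adjusted p = 0.0440) and than in Middle cells by 2.23 ± 0.38 (0.00825), with no overlap of the Aged libraries and the others. ARG4 (YHR018C), the argininosuccinate lyase of the closing step, went the other way: its RNA was at 439 and 201 CPM in Young, 362 and 269 in Middle cells, against 142 and 94.6 in Aged cells. It fell, with log2 fold changes of -1.46 ± 0.41 against Young cells (edgeR adjusted p = 0.0393) and -1.43 ± 0.29 against Middle cells (0.0212). With all libraries kept, the ARG3 call against Young cells was lost with DESeq2, the study's tool, or at least 10 counts in every library. The ARG4 call against Middle cells was lost in a joint fit of the 3 ages. Leaving aside Young replicate 2, the calls of ARG3 and ARG4 in Aged against Young cells were lost without Young replicate 1 (234 genes then passed as higher and 87 as lower, against 473 and 291), and also without Aged replicate 1 for ARG3 and without Aged replicate 2 for ARG4, with log2 values from 1.08 to 1.51 for ARG3 and from -1.93 to -0.80 for ARG4. Against Middle cells, ARG3 was lost without Middle replicate 2 and ARG4 without Middle replicate 1, Middle replicate 2 or Aged replicate 2, where 97 of 5487 genes were higher (Middle replicate 2) and 23 to 74 were lower, against 270 higher and 170 lower with all libraries. ARG8 (YOL140W), the mitochondrial acetylornithine aminotransferase, had 14 and 14 footprint counts in Young and 1 and 1 in Middle cells, a ratio of 0.0964 (95% exact interval for counting error 0.0111 to 0.382, edgeR adjusted p = 0.0491), and the call was lost without Young replicate 1 or Middle replicate 2. ARG1 and ARG5,6 did not pass a test, with footprint log2 fold changes in Middle cells of -1.80 ± 0.53 for ARG1 (edgeR adjusted p = 0.0632) and -2.44 ± 0.72 for ARG5,6 (0.0638).

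In Aged cells, the RNA of 4 of 49 enzymes was higher than in Young cells (8.16%, against 8.02% of 5897 genes) and that of 5 was lower (10.2%, against 4.93%). The higher ones were CPA1, ARG3, LEU4 and ARO3, and the lower ones ARG4, HIS4, BAT1, SER3 and ASN1. The median log2 fold change was -0.15, against -0.02 over all genes. Between Middle and Aged cells, 5 enzymes were higher in Aged cells (10.2%, against 4.76% of 5674 genes) and 6 lower (12.2%, against 3%), the latter being 5 lysine enzymes and ARG4. By size alone, 10 were more than 2-fold lower (20.4%, against 7.7%). The 3 RNA comparisons share libraries, so their values are given side by side and not as independent results.

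All 4 histidine enzymes had negative log2 fold changes in Middle and in Aged cells, in RNA and in footprints, and 3 of them passed a test. The RNA of the 4 enzymes summed to 1367 and 670 CPM in Young, 494 and 331 in Middle cells, against 438 and 361 in Aged cells. HIS4 (YCL030C), which encodes a protein with 3 activities of the pathway, was at 870 and 360 CPM of RNA in Young, 260 and 130 in Middle cells, against 157 and 126 in Aged cells. It fell by 2.13 ± 0.44 on the log2 scale in Aged cells (edgeR adjusted p = 0.0111), and all Middle and Aged libraries lay below the Young ones. This call was lost without Young replicate 1 (log2 -1.37, with 87 of 6057 genes lower, against 291 of 5897 with all libraries) and kept without either Aged library. Without Young replicate 2, where 0 of 5958 genes passed, the value was -2.64. HIS4 footprints were at 950 and 253 CPM in Young, 212 and 54.1 in Middle cells, against 98.7 CPM in Aged cells. In footprints, HIS1 and HIS7 passed the test in Middle cells. HIS1 (YER055C), the ATP phosphoribosyltransferase of the entry step, was at 240 and 101 CPM in Young, 49.9 and 36.7 in Middle cells, against 61.6 in Aged cells, and it fell by 2.02 ± 0.52 (edgeR adjusted p = 0.0421). HIS7 (YBR248C), imidazole glycerol phosphate synthase, was at 123 and 83.7 CPM in Young, 31.2 and 27.0 in Middle cells, against 22.3 in Aged cells, and it fell by 1.85 ± 0.47 (0.0413). Both calls were lost without Young replicate 1 or without Middle replicate 2, at -1.33 or below. With all libraries kept, the HIS7 call was also lost with scaling by library totals and with DESeq2. HIS5, the histidinol-phosphate aminotransferase, did not pass a test, with log2 fold changes between -0.49 and -0.04 in RNA and footprints.

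Among the isoleucine and valine enzymes, 5 of 7 RNA log2 fold changes were negative in Middle cells, and 6 of 7 were positive from Middle to Aged cells, where ILV3 and ILV5 passed the test. ILV3 (YJR016C), the dihydroxyacid dehydratase of both the isoleucine and valine routes, was at 313 and 185 CPM of RNA in Young, 100 and 99.6 in Middle cells, against 366 and 350 in Aged cells. Its rise from Middle to Aged cells was log2 1.85 ± 0.24 (edgeR adjusted p = 0.00254), and it passed the test under every setting and with any library left out. ILV5 (YLR355C), the acetohydroxyacid reductoisomerase, was at 347 and 239 CPM in Young, 155 and 174 in Middle cells, against 402 and 830 in Aged cells, a rise of 1.91 ± 0.36 from Middle to Aged cells (edgeR adjusted p = 0.0130). The Aged libraries of ILV5 differed by more than 2-fold, and without Aged replicate 2 the value was 1.30 and did not pass, nor did it without either Middle library (97 to 181 of all genes higher in these settings, against 270). ILV3 footprints were at 442 and 176 CPM in Young, 74.9 and 75.3 in Middle cells, against 332 in Aged cells, a log2 fold change of -2.03 ± 0.50 in Middle cells (edgeR adjusted p = 0.0388) that was lost without Young replicate 1 or Middle replicate 2. The other members, ILV1 (threonine deaminase), ILV2 and ILV6 (catalytic and regulatory subunits of acetolactate synthase), did not pass a test in any comparison.

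BAT1 and BAT2, the mitochondrial and cytosolic branched-chain aminotransferases, moved differently. BAT1 (YHR208W) RNA was at 125 and 71.2 CPM in Young, 28.6 and 21.3 in Middle cells, against 37.9 and 36.8 in Aged cells. It fell, with log2 fold changes of -2.02 ± 0.43 in Middle cells (edgeR adjusted p = 0.0475) and -1.38 ± 0.41 in Aged cells (0.0464), with all older libraries below the Young ones. Its footprints were at 287 and 90.7 CPM in Young, 25.0 and 11.6 in Middle cells, against 80.7 in Aged cells, a log2 fold change of -3.55 ± 0.68 in Middle cells (edgeR adjusted p = 0.0179) that was lost without Middle replicate 2. BAT2 RNA was at 295 and 564 CPM in Young, 570 and 521 in Middle cells, against 455 and 604 in Aged cells, and its log2 fold changes of 0.33 ± 0.37 in Middle cells, against 0.29 ± 0.38 in Aged cells did not pass the test. The Aged call of BAT1 in RNA was lost with any library left out, at -1.76 to -0.94, in settings where 0 to 226 of all genes were lower, against 291. The Middle call was lost without Young replicate 1 or Middle replicate 2, at -1.56 or below, where 58 and 109 of all genes were lower, against 50. With all libraries kept, the Aged RNA call of BAT1 was also lost with scaling by library totals and with DESeq2. The Middle RNA call was also lost with at least 10 counts in every library. The difference between the paralogs was not tested.

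All 3 leucine enzymes had positive RNA log2 fold changes in Aged cells, and LEU4 passed the test. LEU4 and LEU9 encode the α-isopropylmalate synthases of the entry step, whose product is the signal for Leu3, and LEU1 encodes isopropylmalate isomerase. LEU4 (YNL104C) was at 282 and 273 CPM of RNA in Young, 367 and 420 in Middle cells, against 727 and 504 in Aged cells, and it rose by log2 1.14 ± 0.34 against Young cells (edgeR adjusted p = 0.04999). The Aged libraries lay above all others, but the call sat at the threshold and was lost with any library left out, at 0.85 to 1.39, in settings where 0 to 409 of all genes were higher, against 473. With the counts of LEU4 and LEU9 summed the value was 1.11 ± 0.34 and did not pass the test (edgeR adjusted p = 0.0559). The call of LEU4 alone was also lost with DESeq2's size factors and with a minimum of 10 or 3 counts in every library. LEU9 (YOR108W), the minor paralog, had 23 and 21 RNA counts in Young, 1 and 3 in Middle cells, against 14 and 31 in Aged cells. The ratio of Aged to Middle counts was 9.76 (95% exact interval for counting error 3.56 to 37.4, edgeR adjusted p = 0.0258), and it was lost with any library left out, where 97 to 323 of all genes were higher, against 270. The LEU9 call was also lost in the joint fit of the 3 ages. LEU1 was at 200 and 153, 117 and 135, and 216 and 218 CPM in Young, Middle and Aged cells and did not pass a test. All 7 enzymes with the Leu3 letters before them had positive log2 fold changes from Middle to Aged cells, with a median of 0.65, against -0.02 for the 42 without. With the lysine enzymes left out, the median of the 35 others was 0.28. Against Young RNA, 1 of these 7 had a positive value in Middle cells (median -0.83) and 4 of 7 in Aged cells (median 0.30).

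**Figure D3:**
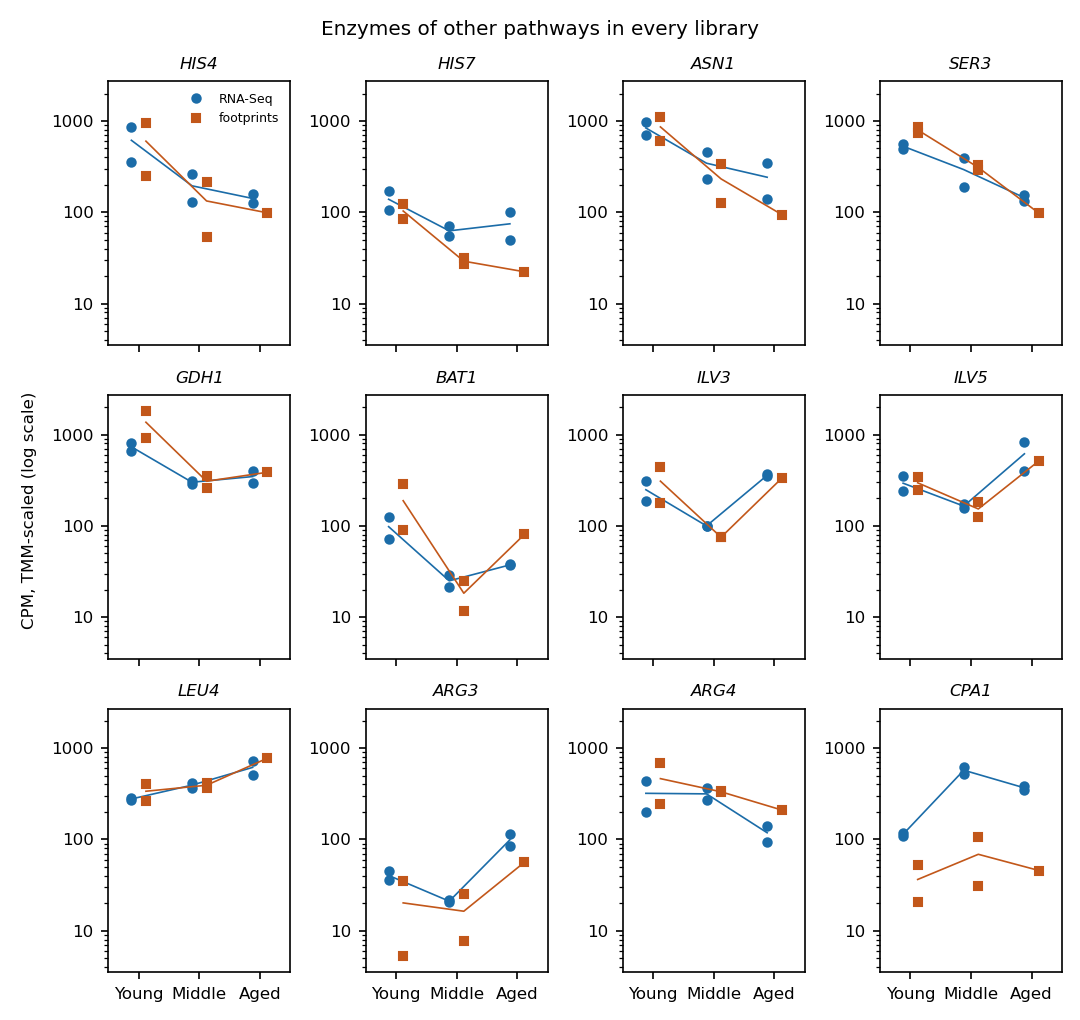
CPM of 12 enzymes of other pathways in every library on a log scale, with RNA-Seq as blue circles, footprints as orange squares and lines through the mean of each age. HIS4, ASN1, SER3 and GDH1 are below their Young RNA in Middle and Aged cells, ILV3 and ILV5 are lowest in Middle cells, and CPA1 RNA is highest in Middle cells while its footprints overlap.

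Among aromatic enzymes, ARO1 and ARO3 passed a test. ARO1 (YDR127W) encodes a single protein with several activities of the shikimate route, and its footprints were at 994 and 394 CPM in Young, 150 and 118 in Middle cells, against 259 in Aged cells, a log2 fold change of -2.40 ± 0.52 in Middle cells (edgeR adjusted p = 0.0236) that was lost without Middle replicate 2. Its RNA was at 1115 and 584 CPM in Young, 408 and 285 in Middle cells, against 618 and 435 in Aged cells, and the Middle difference of -1.32 ± 0.41 did not pass the test (0.103). ARO3 and ARO4 encode the DAHP synthases of the entry step, inhibited by phenylalanine and by tyrosine. ARO3 (YDR035W) was at 157 and 93.6 CPM of RNA in Young, 226 and 141 in Middle cells, against 352 and 230 in Aged cells, a rise of 1.21 ± 0.36 in Aged cells (edgeR adjusted p = 0.0498). ARO3 in Young replicate 1 lay above Middle replicate 2, while both Aged libraries lay above all others, and the call was lost without Young replicate 1 or Aged replicate 1, as without Young replicate 2, where no gene passed, with values from 0.86 to 1.62. With all libraries kept, the ARO3 call was also lost with DESeq2, with DESeq2's size factors, and with a minimum of 10 or 3 counts in every library. ARO4 was at 119 and 52.5 CPM in Young, 81.1 and 24.2 in Middle cells, against 167 and 93.3 in Aged cells, with more than 2-fold between replicates in Young and Middle cells and no test passed. The tryptophan enzymes TRP2, TRP3, TRP4 and TRP5, the chorismate synthase ARO2 and the aminotransferase ARO8 did not pass a test. The aromatic footprints in Middle cells had a median log2 fold change of -1.36, with 7 of 9 values negative.

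The aspartate family leads from aspartate kinase (HOM3) and aspartic semialdehyde dehydrogenase (HOM2) to threonine by homoserine kinase (THR1) and threonine synthase (THR4). None of the 4 passed a test. The smallest unadjusted p in Aged RNA was that of HOM3 (YER052C), at 154 and 30.5 CPM in Young, 97.8 and 39.1 in Middle cells, against 43.6 and 88.9 in Aged cells, where the groups overlap (log2 -0.39 ± 0.63, edgeR adjusted p = 0.728). HOM3 footprints were at 383 and 55.8 CPM in the Young libraries, a difference of more than 2-fold between replicates, and at 77.5 CPM in the Aged library.

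Serine is made from the glycolytic intermediate 3-phosphoglycerate by the dehydrogenases SER3 and SER33 and the aminotransferase SER1. SER3 (YER081W) RNA was at 492 and 566 CPM in Young, 191 and 396 in Middle cells, against 135 and 154 in Aged cells. It fell by 1.88 ± 0.32 on the log2 scale in Aged cells (edgeR adjusted p = 0.00498), with the Aged libraries below all others. Its footprints were at 851 and 747 CPM in Young, 293 and 326 in Middle cells, against 97.7 in Aged cells, the same order. SER33, whose coding sequence is 82.8% identical to that of SER3, was at 64.1 and 76.0 CPM of RNA in Young, 42.9 and 50.5 in Middle cells, against 117 and 83.8 in Aged cells, and its Aged difference of 0.49 ± 0.35 did not pass the test (edgeR adjusted p = 0.397). In Young cells SER3 was the more abundant of the pair, and with the pair summed the log2 fold change in Aged cells was -1.30 ± 0.32 (edgeR adjusted p = 0.0235). The SER3 value lay between -1.98 and -1.78 over the libraries left out, and it passed the test except without Young replicate 2, where 0 of 5958 genes passed. SER1 RNA stayed between 156 and 231 CPM in the 6 libraries.

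The enzymes that fix ammonium and make amides are GDH1, GLT1, GLN1, ASN1 and ASN2. Their RNA summed to 5541 and 5239 CPM in Young, 3171 and 2296 in Middle cells, against 2656 and 3923 in Aged cells, and all 5 log2 fold changes were negative in both Middle and Aged cells. ASN1 (YPR145W), an asparagine synthetase, was at 972 and 707 CPM of RNA in Young, 460 and 230 in Middle cells, against 140 and 344 in Aged cells, and it fell by 1.78 ± 0.44 on the log2 scale in Aged cells (edgeR adjusted p = 0.0229). The Young libraries lay above all others. Its footprints were at 1120 and 604 CPM in Young, 337 and 127 in Middle cells, against 94.5 in Aged cells. The paralog ASN2, 81.2% identical, was at 790 and 493 CPM of RNA in Young, 496 and 350 in Middle cells, against 494 and 364 in Aged cells, where Young and Aged libraries overlap (log2 -0.59 ± 0.37, edgeR adjusted p = 0.335). With the pair summed the Aged difference was -1.15 ± 0.39 and did not pass the test (0.0762). The ASN1 call itself was lost without Young replicate 1 (87 of all genes lower, against 291) or Aged replicate 1 (226), as without Young replicate 2, where no gene passed, with values from -2.58 to -1.29.

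GDH1 (YOR375C), the NADP-dependent glutamate dehydrogenase, had footprints at 1807 and 925 CPM in Young, 356 and 261 in Middle cells, against 386 in Aged cells, a log2 fold change of -2.18 ± 0.50 in Middle cells (edgeR adjusted p = 0.0306) that was lost without either Middle library. Its RNA was at 806 and 663 CPM in Young, 312 and 289 in Middle cells, against 400 and 294 in Aged cells, with the Middle and Aged libraries below the Young ones but adjusted p at 0.0577 and 0.0637 in edgeR. GLT1 (YDL171C), glutamate synthase, was at 832 and 465 CPM of RNA in Young, 327 and 248 in Middle cells, against 676 and 539 in Aged cells, and it rose from Middle to Aged cells by 1.09 ± 0.28 (edgeR adjusted p = 0.0466), a call lost with any library left out (0.89 to 1.29), where 97 to 323 of all genes were higher, against 270. The GLT1 call was also lost in the joint fit of the 3 ages. GLN1, glutamine synthetase, was at 2141 and 2912 CPM of RNA in Young, 1576 and 1179 in Middle cells, against 945 and 2382 in Aged cells, and no comparison passed the test. Its Aged libraries differed by more than 2-fold.

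In footprints of Middle cells, 2 of 49 enzymes were higher than in Young cells (4.08%, against 2.74% of 4167 genes) and 7 were lower (14.3%, against 4.15%). The 2 were LYS1 and LYS9, and the 7 were ARG8, HIS1, HIS7, ILV3, BAT1, ARO1 and GDH1, from 5 pathways. The median log2 fold change was -0.83, against -0.01 over all genes, and 23 enzymes were more than 2-fold lower (46.9%, against 16.5%). Young footprint replicate 1 was the higher of the pair for nearly all enzymes, and 4 enzymes were lower without Young replicate 1 and 23 without Young replicate 2, while lower calls over all genes were 165 of 4499 and 555 of 4342, against 173 of 4167 with all libraries. Medians of the enzymes lay between -1.13 and -0.33 over the 4 libraries left out. Without Middle replicate 2 none passed, with only 11 of 4310 genes lower, and without Middle replicate 1 the count was 13, with 209 of 4493 genes lower. By promoter, 24 of the 29 enzymes with TGACTCA had negative footprint log2 fold changes, with a median of -1.07, and 12 of the 20 without it, with a median of -0.67. With the lysine enzymes left out these medians were -1.42 and -1.04.

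**Figure D4:**
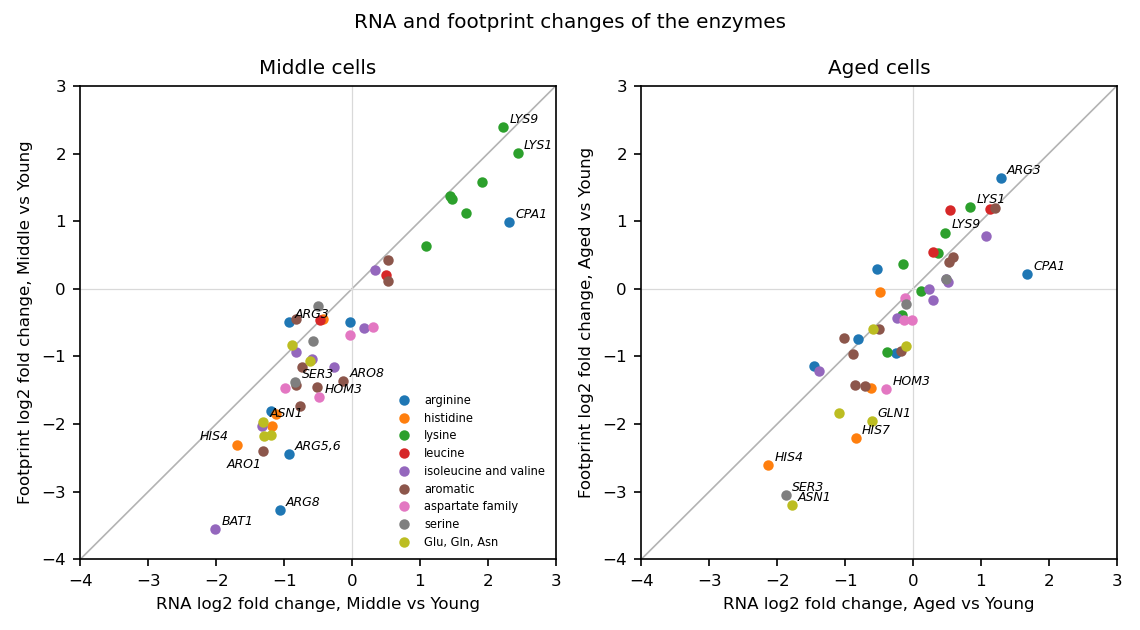
Log2 fold change of footprints against that of RNA for 48 of the 49 enzymes in Middle (left) and Aged (right) cells relative to Young cells, colored by pathway, with the line of equal change. LEU9 has no RNA value in Middle cells, the Aged footprints are 1 library, most Middle points lie below the line, and CPA1 lies furthest below it in Aged cells.

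No enzyme passed the test of translational efficiency in Middle cells: 0 of 49 passed the age-by-assay test of edgeR in either direction (0% of 5334 genes), and 0 enzymes passed with DESeq2 (19 of all genes lower), a block by replicate number (1 higher and 9 lower) or a block by lysate (8 higher, 47 lower). With no adjustment, at p under 0.05, there was 1 higher enzyme (2.04%, against 1.2% of all genes) and 1 lower (2.04%, against 1.97%), LEU9, with 1 and 3 RNA counts in the Middle libraries, and ARG8, with 1 and 1 footprint counts there. The values leaned downward: 40 of 49 were negative, the median was -0.43 on the log2 scale against -0.07 over all genes, and 7 were more than 2-fold lower (14.3%, against 8.87%) and 1 more than 2-fold higher (2.04%, against 6.79%). That median ranged from -0.98 to -0.04 with each library left out.

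Per coding length, the RNA level of the median enzyme in Young cells was 348 CPM per 1000 codons, against 154 over 6568 genes. The most abundant were GLN1 at 6998, GDH1 at 1651 and ASN1 at 1491 CPM per 1000 codons. The least abundant were LEU9 at 28.2, THR1 at 108 and ARG3 at 122 CPM per 1000 codons. The gap between GLN1 and GDH1 exceeded the replicate spread (5930 and 8065 against 1812 and 1489), while GDH1 and ASN1 overlapped (1726 and 1256), as did THR1 (136 and 81.2) and ARG3 (137 and 108).

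The ratio of footprint to RNA CPM of a lysate had a median of 1.27 over the enzymes in Young cells, against 0.886 over 3458 genes with at least 10 counts in every Young library. LYS20 had the highest ratio, with a geometric mean of 4.50, and ARO4 and LYS1 followed at 3.07 each. The lowest was GLT1, the longest coding sequence of the list, at 0.206, with 0.366 and 0.116 in the lysates. CPA1 followed at 0.287, with 0.188 and 0.440. ARG3 was at 0.339 with only 12 and 3 Young footprint counts. In the Aged library GLT1 was at 0.161 and CPA1 at 0.124, and LYS20 at 4.99.

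**Figure D5:**
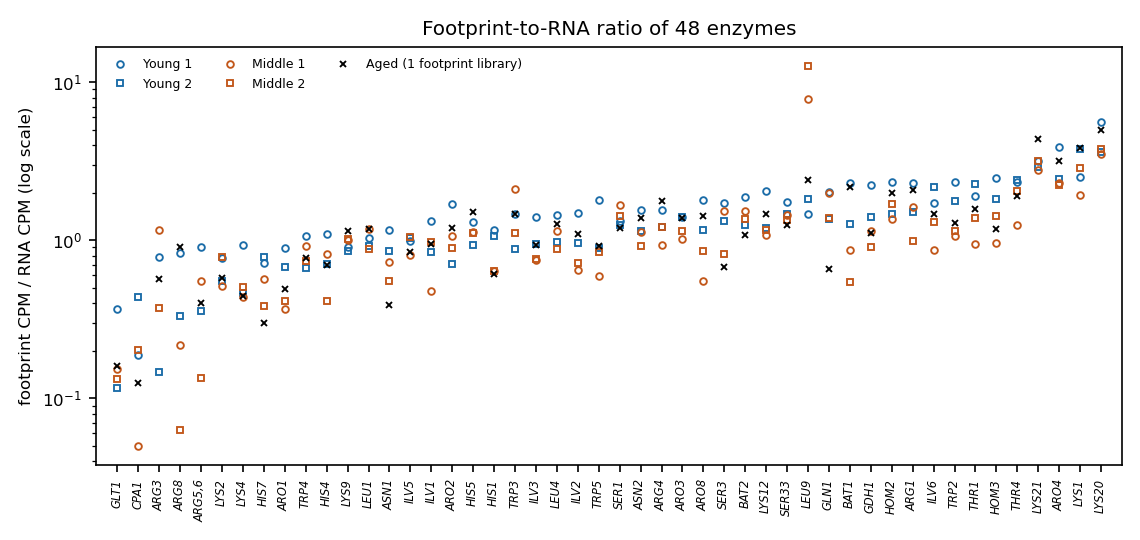
Ratio of footprint CPM to RNA CPM (log scale) for 48 of the 49 enzymes, ordered by the geometric mean of the Young lysates, with Young in blue, Middle in orange (circles replicate 1, squares replicate 2) and Aged as crosses, for which 1 footprint library is set over the mean of 2 RNA libraries. GLT1 and CPA1 are at the low end and LYS20 at the high end, and the Middle ratios of LEU9 at 7.85 and 12.7 rest on 1 and 3 RNA counts.

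Aged footprints come from 1 library, so fold changes are given without a test of their own. Relative to Young cells, 5 of 49 enzymes were more than 2-fold higher (10.2%, against 16.5% of 4619 genes) and 12 more than 2-fold lower (24.5%, against 18.4%), with a median of -0.39 against -0.02. The higher ones were ARG3, at 35.1 and 5.23 CPM in Young and 56.3 in Aged cells, LYS1, LEU4, LEU9 and ARO3, with log2 values from 1.16 to 1.64. The lowest values were those of ASN1 (log2 -3.20), SER3 (-3.05), HIS4 (-2.61) and HIS7 (-2.21). GLN1 footprints were at 4337 and 3948 CPM in Young, 3138 and 1636 in Middle cells, against 1088 in Aged cells, a log2 value of -1.95. The others past 2-fold lower were ARG4, HIS1, BAT1, TRP5, ARO1, HOM3 and GDH1. With either Young library left out, HIS4, HIS7, SER3, GDH1, GLN1 and ASN1 stayed past 2-fold lower, and none of the 5 higher ones did without Young replicate 2. A joint fit of the 3 ages, which takes the Aged library to vary like the Young and Middle ones, called SER3 (edgeR adjusted p = 0.00775), ASN1 (0.0167) and HIS7 (0.0226) lower (4.06% of 4635 genes) and 0 enzymes higher (4.79%).

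Translational efficiency in Aged cells was more than 2-fold higher for 0 enzymes (10% of 6028 genes) and more than 2-fold lower for 5 (10.2%, against 13%), namely CPA1 (log2 -1.36), ASN1 (-1.32), HIS7 (-1.27), GLN1 (-1.24) and SER3 (-1.08). Each of these was within 2-fold with some library left out. In the joint fit none passed the test, as for all 5757 genes. CPA1 footprints over RNA were 0.188 and 0.440 in Young and 0.124 in the Aged library, below the range of the Young lysates.

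Enzymes located in mitochondria (12, among them ARG5,6, ARG8, the ILV enzymes, BAT1, LEU4, LEU9, LYS4 and LYS12) and the other 37 had similar medians in Middle RNA, at -0.59 and -0.52. From Middle to Aged cells, 10 of the 12 mitochondrial enzymes had positive log2 fold changes with a median of 0.64, against 18 of the other 37 with a median of -0.03. Most of the 12 are isoleucine, valine or leucine enzymes, and the other 37 hold the lysine enzymes except LYS4 and LYS12. Location and pathway therefore cannot be told apart, and no test was made of this split.

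Of 20 further biosynthesis enzymes, SER2 was the only 1 called against Young cells: its footprints fell by 2.47 ± 0.66 on the log2 scale in Middle cells (edgeR adjusted p = 0.0492). They numbered 24 and 40 counts in Young, and 0 and 9 in Middle cells. SER2 was 1 of 16 tested in footprints, against 4.15% of 4167 genes lower. SHM2, a serine hydroxymethyltransferase, rose in RNA from Middle to Aged cells by 1.46 ± 0.25 (edgeR adjusted p = 0.00864). It was 1 of 20 called higher there, against 4.76% of 5674 genes. The regulators of these pathways were measured as well. GCN4 RNA was at 436 and 143 CPM in Young, 362 and 168 in Middle cells, against 424 and 427 in Aged cells, and no comparison passed the test. GCN4 footprints numbered only 15 and 15 counts in Young, 5 and 3 in Middle cells, against 11 in Aged cells. In CPM they were 43.9 and 26.2, 31.2 and 5.79, and 11.7, so that Young and Middle libraries overlapped and the 1 Aged library lay below both Young ones. GCN1, which is needed to activate Gcn2, was at 1061 and 658 CPM of RNA in Young, 291 and 219 in Middle cells, against 455 and 386 in Aged cells. It fell in Middle cells, with log2 fold changes of -1.78 ± 0.37 in RNA (edgeR adjusted p = 0.0461) and -3.36 ± 0.49 in footprints (0.0103). GCN1 was the only regulator called in these comparisons. That is 1 of 12 in RNA, against 0.859% of 5818 genes lower, and 1 of 8 tested in footprints, against 4.15% of 4167. LYS14 RNA was at 138 and 131 CPM in Young, 255 and 267 in Middle cells, against 163 and 138 in Aged cells, the same order as the lysine enzymes, and its log2 fold change of 0.95 ± 0.26 in Middle cells did not pass the test (edgeR adjusted p = 0.0743). LEU3 RNA was at 86.6 and 68.3 CPM in Young, 21.5 and 31.3 in Middle cells, against 43.6 and 80.6 in Aged cells and did not pass a test. GLN3, an activator of genes for nitrogen use, fell in Aged cells by 1.36 ± 0.39 in RNA (edgeR adjusted p = 0.0411), from 135 and 81.8 CPM to 41.7 and 42.5 CPM. It was 1 of 12 regulators called lower there, against 4.93% of 5897 genes. Calls of the further enzymes and the regulators were not followed with libraries left out.

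Enzymes of amino acid breakdown were listed for comparison. Of 11 listed, 10 were tested in Middle RNA, of which 9 had positive log2 fold changes, with a median of 0.79, against -0.02 over all genes. Of the 10, 1 passed the test as higher (against 2.11% of 5818 genes), UGA2 of the γ-aminobutyrate route. It was at 150 and 145 CPM in Young and 408 and 351 in Middle cells (log2 1.35 ± 0.27, edgeR adjusted p = 0.0401). In Middle footprints 3 of 10 rose (against 2.74% of 4167 genes), UGA2 (1.82 ± 0.40, edgeR adjusted p = 0.0251), the aromatic aminotransferase ARO9 (2.52 ± 0.64, 0.0421, with 2 and 4 counts in Young and 6 and 21 in Middle libraries) and the proline oxidase PUT1 (2.66 ± 0.71, 0.0493). PUT1 RNA was at 120 and 446 CPM in Young, 3078 and 1363 in Middle cells, against 888 and 429 in Aged cells, with more than 2-fold between replicates at each age. CAR2, ornithine aminotransferase of arginine breakdown, rose in Aged RNA by 1.31 ± 0.35 (edgeR adjusted p = 0.0343), from 88.8 and 134 to 352 and 213 CPM. It was 1 of 11 called higher there, against 8.02% of 5897 genes. In the 1 Aged footprint library, 8 of 11 were more than 2-fold above Young cells (16.5% of 4619 genes), with a median of 1.27 against -0.02. Some of these rest on few Young footprint counts, 0 and 5 for CHA1, 2 and 4 for ARO9, and 2 and 4 for ARO10. PUT1, also among them, had 56 and 392 in the Young libraries. The difference between the lists was not tested.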

How the data were processed

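RNA-Seq (6 libraries) and ribosome footprints (5 libraries) were made by the study from lysates of Young, Middle and Aged cells, RNA from the same lysate as footprints. The deposited tables hold counts per coding sequence, for which the authors trimmed reads with Fastp, took out those of non-coding RNA, aligned the rest to S288C (R64, sacCer3) with STAR 2.7.0a and counted without the first and last 5 codons, with an offset of 15 nt for RNA-Seq and offsets set by length for footprints. A second deposited column is the coding length in codons, and it served for levels per length. CASAVA 1.8 is named in the submitters' processing notes. The annotation version, strand use and treatment of reads with several places are not given in the sources used here, so reads of overlapping or antisense genes cannot be told apart.

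For all 6668 genes, edgeR 4.0.16 under R 4.3.3 was run (filterByExpr, TMM, two-sided quasi-likelihood test, Benjamini-Hochberg adjustment over all genes tested, threshold 0.05) on the ages compared. Translational efficiency was the age-by-assay interaction. The study used DESeq2, here (1.42.0) an alternative. For Aged footprints, with 1 library, enzymes past 2-fold were counted. The title of that library has no number, so its ratio was taken over the mean of both Aged RNA libraries. CPM are counts per 1000000 after TMM scaling, and errors of log2 fold changes are SE. The tests were tested on simulated counts. Replicates are called biological by the study and differed by more than sampling noise (chi-square per degree of freedom 6.30 to 28.0). Intervals cover counting error only.

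Replicate numbers of the titles were checked over 3904 genes: deviations of same-numbered libraries of different ages correlated at r = 0.0649 to 0.368, with only 2 pairs each, and no source says that a number is shared between ages, so the main fits have no block. RNA and footprint libraries of a lysate correlated at 0.559 (Young) and 0.330 (Middle). The main test of translational efficiency did not use this pairing, and the block by lysate was an alternative. Over all genes that block gave 8 higher and 47 lower in Middle cells, against 0 of 5334 in the main test, which may therefore miss changes.

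The enzymes and the other lists were chosen with earlier results of these data known. Enzymes given with values per library are those with adjusted p under 0.05, the paralogs, the ends of the level and ratio orders, those past 2-fold in Aged footprints or translational efficiency, and, for a pathway without a call, the one with the smallest p in Aged RNA. Some of the 2-fold ones are only named. Alternatives were DESeq2's size factors, library totals, no filter on low counts, a minimum of 10 in each library, the 3 ages fitted jointly, DESeq2, 4 paralog pairs summed, blocks by the replicate number or by the lysate, TMM within each assay, each library left out and, added after seeing the data, a minimum of 3. Promoters (500 bases before the start codon) and coordinates are from RefSeq. Of the 49 enzymes, 1 is counted in the totals but is not reported here by itself or drawn in the plots.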

Additional observations from a re-analysis of the deposited data

How the results depend on the processing

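Medians of the 49 enzymes moved by less than the spread between replicates under all alternatives, and the counts of calls in translational efficiency in Middle cells stayed at 0. That spread was 0.25 to 0.913 on the log2 scale. The widest was for translational efficiency in Middle cells, whose median was itself -0.43. The spread was taken from the same libraries, so a smaller move with a library left out is no evidence of stability. For Middle RNA, 1 enzyme was lower, against 0 with at least 10 counts in every library, 3 in the joint fit, 6 with DESeq2, 9 with the replicate block and 0 to 13 with each library left out, while lower calls over all genes were 50, against 31, 120, 144, 204 and 58 to 349. For Aged RNA, 4 were higher, against 2 with DESeq2's size factors, 1 with at least 10 counts, 2 with DESeq2, 2 with at least 3 counts and 0 to 3 with each library left out, and 5 were lower, against 0 to 3. Without Young replicate 2, 0 of 5958 genes passed in this comparison. For Aged against Middle RNA, 5 were higher, against 3 with at least 10 counts, 3 in the joint fit, 11 with the replicate block and 1 to 3 with each library left out, and 6 were lower, against 10 with the block and 0 to 8. For Middle footprints, 2 were higher, against 5 with library totals, 4 without a filter, 5 with the block and 0 to 4, and 7 were lower, against 12 with library totals, 18 without a filter, 11 with paralogs summed, 15 with at least 3 counts, 18 with the block and 0 to 23. For Aged footprints, 5 were past 2-fold higher, against 3 with at least 10 counts and 2 to 6, and 12 lower, against 6 to 21. For Aged translational efficiency, 0 were past 2-fold higher, against 0 to 9, and 5 lower, against 3 with paralogs summed and 2 to 12. Counts over all genes moved too: with the block, from 270 to 784 higher and 170 to 634 lower in Aged against Middle RNA, and from 114 to 281 higher and 173 to 400 lower in Middle footprints. The causes were not tested. Without Young footprint replicate 1, Aged footprints of HOM3 were at 0.41, against -1.48 with all libraries (lowest -2.39 with 1 left out), and Aged translational efficiency of ARO4 was at 1.13, against -0.02 (lowest -0.70). Of the values for single enzymes, 4284 kept their side of the threshold, 212 passed it anew, 102 lost it and 2 reversed. A change of direction was counted as reversed only for values past the threshold in the main fit or the alternative. Changes of direction among the other values were not counted. With 2 libraries a group, leaving 1 out assumes that the lone library varies like the others. The replicate numbers are not shown to pair the ages, so the block is no stronger evidence. Footprint depth limits low enzymes such as ARG3, ARG8, CPA1 and LEU9.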
